A study of Mus musculus with 6 samples.

Results

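The genes for the laminin chains and integrin subunits were read in RNA from mouse heart muscle cells, in 6 libraries from animals of the wild-type (WT) genotype. Members were all rows of the deposited table whose gene symbol was that of a numbered laminin alpha, beta or gamma chain, of a numbered integrin alpha subunit or Itgav, or of a numbered integrin beta subunit. This gave 32 genes of 22063 in the table: 11 laminin chains and 21 integrin subunits. Leukocyte alpha subunits with letter names, such as Itgal and Itgam, fell outside the rule. In 3 libraries the mice had been injected with α-ketoglutarate (AKG, a metabolite of the tricarboxylic acid cycle) for 2 weeks, 300 mg per kg each day, and in 3 they had been injected with phosphate-buffered saline (PBS, the Control). The labels gave postnatal day 21 both for the injected mice and for cell isolation by retrograde heart perfusion (the Langendorff method). They did not say whether a library held 1 animal or several. The p-values thus rest on the spread among libraries, which may be technical in part.

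Laminins are cross-shaped proteins of the basement membrane, the sheet of matrix around each muscle cell and under the endothelium, and each is built of an alpha, a beta and a gamma chain. Integrins are receptors of an alpha and a beta subunit that cross the cell membrane and tie the matrix to the actin cytoskeleton. In adult heart muscle the main laminin receptor pairs the products of Itga7 and Itgb1, and the surrounding laminin carries the Lama2 chain with Lamb1 or Lamb2 and Lamc1. Lama4 and Lama5 are known chains of vessel walls.

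After AKG, the muscle laminin receptor gene Itga7 stood at less than its Control level while its partner Itgb1 did not pass the test. The integrin beta gene Itgb6 fell furthest of the members, Itgb5 rose, and the laminin beta chains moved in opposite directions, with Lamb1 higher and Lamb2 lower. Among the 30 members with enough counts to be tested, 11 were higher and 7 lower at an adjusted p under 0.05 (edgeR's quasi-likelihood test with Benjamini-Hochberg adjustment over 13117 genes). Of all tested genes 25.0% were higher and 25.2% lower, beside 36.7% and 23.3% of these members. The lower share was close to that of all genes, and neither difference was tested. The members' median log2 fold change was 0.13, beside 0.00 over all tested genes. Levels of all AKG libraries lay above those of all Control libraries for 12 of the 30, and below them for 8, where 29.4% and 29.9% of all tested genes did so. Lama1 and Lamc3 had too few counts for the test. Lama1 had 1 count over the Control and 2 over the AKG libraries, and Lamc3 had 18 and 7.

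The libraries held between 14402876 and 17797368 counts, and 3 counts corresponded to 0.167 to 0.221 CPM (counts scaled to a common library total) after TMM scaling (trimmed mean of M-values). This scaling sets the bulk of genes level, so each rise or fall is relative to that bulk. Scaled by total counts, all genes had a median of 0.45 on the log2 scale, and 17 members were higher and 5 lower, and 56.7% and 9.12% of all genes. Limma on log2(FPKM + 1), which rests on the same totals, gave 12 higher and 3 lower of 22 members, beside 58.4% and 9.08% of all genes. AKG 1 and AKG 3 held transcripts of the atrium (Sln, Myl7, Myl4, Bmp10 and Mybphl), at a sum of 359 and 220 CPM, beside 7.58 CPM in AKG 2 and 6.40 to 12.0 CPM in the Controls. With AKG 2 as the only AKG library 9 members were higher and 8 lower (20.1% and 20.7% of all genes), a fit in which the lone library is assumed to vary like the Controls. With the atrial level as a covariate 6 were higher and 7 lower (16.5% and 17.2% of all genes). Transcripts of the Y chromosome summed to 168, 0.311 and 176 CPM in Controls 1 to 3. In AKG 1 to 3 they summed to 89.2, 50.4 and 39.0 CPM. Control 2 thus did not hold the same animals as Controls 1 and 3, and no fit took sex into account. In bulk RNA, fewer cells of a type and less transcript per cell cannot be told apart.

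Itga7, the alpha subunit of the muscle laminin receptor, stood at 145, 143 and 154 CPM in the Control libraries and at 68.0, 71.5 and 66.0 CPM in the AKG libraries. The groups did not overlap, and every AKG library lay below every Control library by a wide margin. The log2 fold change was -1.11 (SE 0.072, adjusted p = 7.58e-08, edgeR quasi-likelihood), a level 2.15-fold lower. Of all tested genes 9.29% changed by as much or more in either direction. The fall was called in each alternative fit, with a log2 fold change of -0.66 when total counts set the scaling. Markers of heart muscle moved with it: 0 of 12 rose and 9 fell (median -0.71), and their summed level went from 63543 to 68365 CPM in the Controls to 35553 to 39357 CPM after AKG. Myh6, the adult cardiac myosin heavy chain, had a log2 fold change of -1.16 (SE 0.128, adjusted p = 7.4e-06, edgeR quasi-likelihood). Smooth muscle, another known source of Itga7, also moved with it, with 7 of 12 smooth muscle and pericyte markers lower and 2 higher, at summed levels of 3494 to 3645 and 2430 to 2650 CPM. None of the markers in these lists was at 0 in every library. Under total-count scaling 6 heart muscle markers were lower and 3 higher, and 2 smooth muscle markers were lower and 4 higher. The part of either cell type in the fall of Itga7 was not tested.

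Itgb1, the beta subunit shared by most matrix-binding integrins, stood at 389, 405 and 379 CPM in Control and at 453, 423 and 461 CPM after AKG. All AKG values lay above all Control values, by as little as the step from 405 to 423 CPM. The log2 fold change of 0.19 (SE 0.078) did not pass (adjusted p = 0.0596, edgeR quasi-likelihood). It passed with DESeq2 (adjusted p = 0.034), with limma-voom (0.0473) and without AKG replicate 2 (0.0381), and also with total counts as the scaling, where the log2 fold change was 0.63, and in limma on log2 FPKM with a pseudocount of 1 (0.64) or 0.1 (0.64). Over that result's alternatives the direction was always upward.

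**Figure D1:**
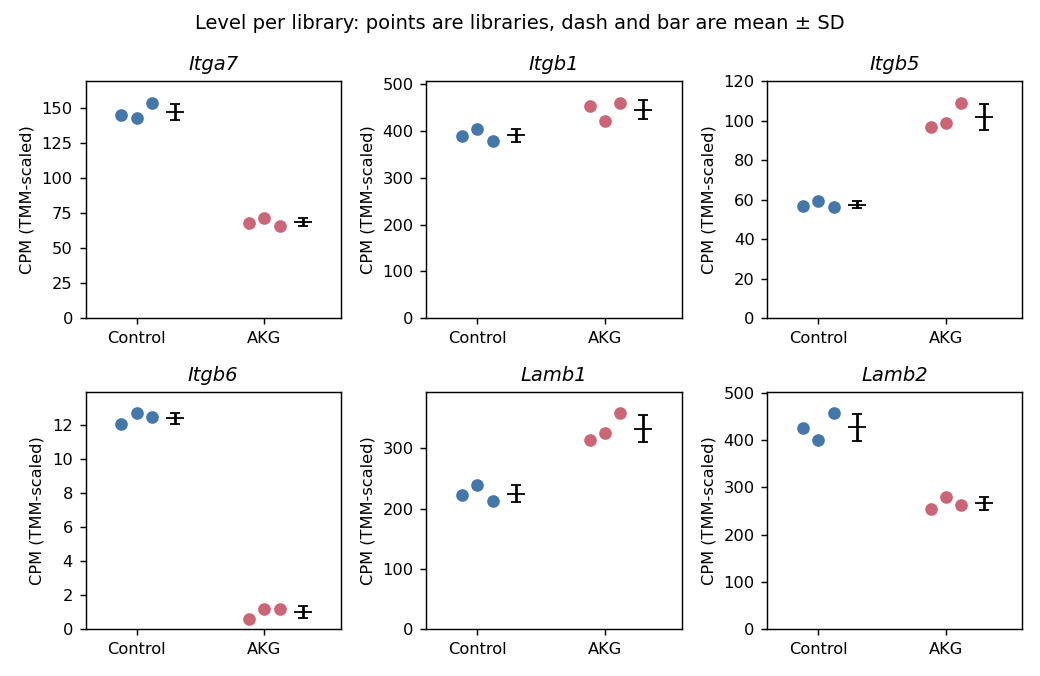
Level of 6 member genes in each library, in TMM-scaled CPM on axes that start at 0. Points are libraries, and the dash with its bar is the mean ± SD of 3 libraries. Itga7, Itgb6 and Lamb2 are lower in all AKG libraries, Itgb5 and Lamb1 higher, and Itgb1 lies at 379 to 405 CPM in Control and 423 to 461 CPM after AKG.

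Levels of different genes were compared per transcript length, as each gene's share of the FPKM (fragments per kilobase of transcript, scaled to the library's total) of its own family within a library, which no scaling between libraries can change. Itga7 made up 39.8%, 34.5% and 40.5% of integrin alpha FPKM in Control and 18.4%, 19.3% and 16.6% after AKG. It was thus the leading alpha subunit of each Control library and fell below Itga5, the fibronectin receptor subunit, in each AKG library. The mean share went from 38.3% ± 3.3 to 18.1% ± 1.35 (SD, n = 3, exact permutation p = 0.1, two-sided as in all such tests here, adjusted p = 0.14 over 7 shares). No design of 3 against 3 can give a smaller p than 0.1. Without length scaling, as a share of counts, the difference was -11.6 percentage points in place of -20.2. The 3 known laminin-binding subunits Itga3, Itga6 and Itga7 together held 52.5% ± 2.5 of alpha FPKM in Control libraries, and 38.8% ± 1.43 in AKG libraries (SD, n = 3, exact permutation p = 0.1, adjusted p = 0.14). As a share of counts that difference was -6.87 points in place of -13.7.

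Several other alpha subunits held a larger share after AKG. Shares of a family add up to its whole, so the fall of Itga7 by itself raises those of the others. Itga5 went from 21.3% ± 0.51 to 31.9% ± 1.6 of alpha FPKM, Itga6 from 11.3% ± 1.06 to 15.9% ± 0.46, and Itgav from 2.81% ± 0.35 to 5.67% ± 0.73 (SD, n = 3). Itga1 held 12.3% to 13.8% in Control and 11.7% to 12.2% after AKG, so its groups came close without overlapping. These shares of single subunits were not tested. The ratio of Itga5 to Itga7 FPKM was 0.52, 0.63 and 0.53 in the Control libraries and 1.66, 1.64 and 2.02 in the AKG libraries, a change from below to above 1 in each (exact permutation p = 0.1, adjusted p = 0.1 over 4 ratios). Itga7 over Itgb1 fell from 0.345 ± 0.048 to 0.12 ± 0.016 on the same scale (SD, n = 3, exact permutation p = 0.1, adjusted p = 0.1).

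**Figure D2:**
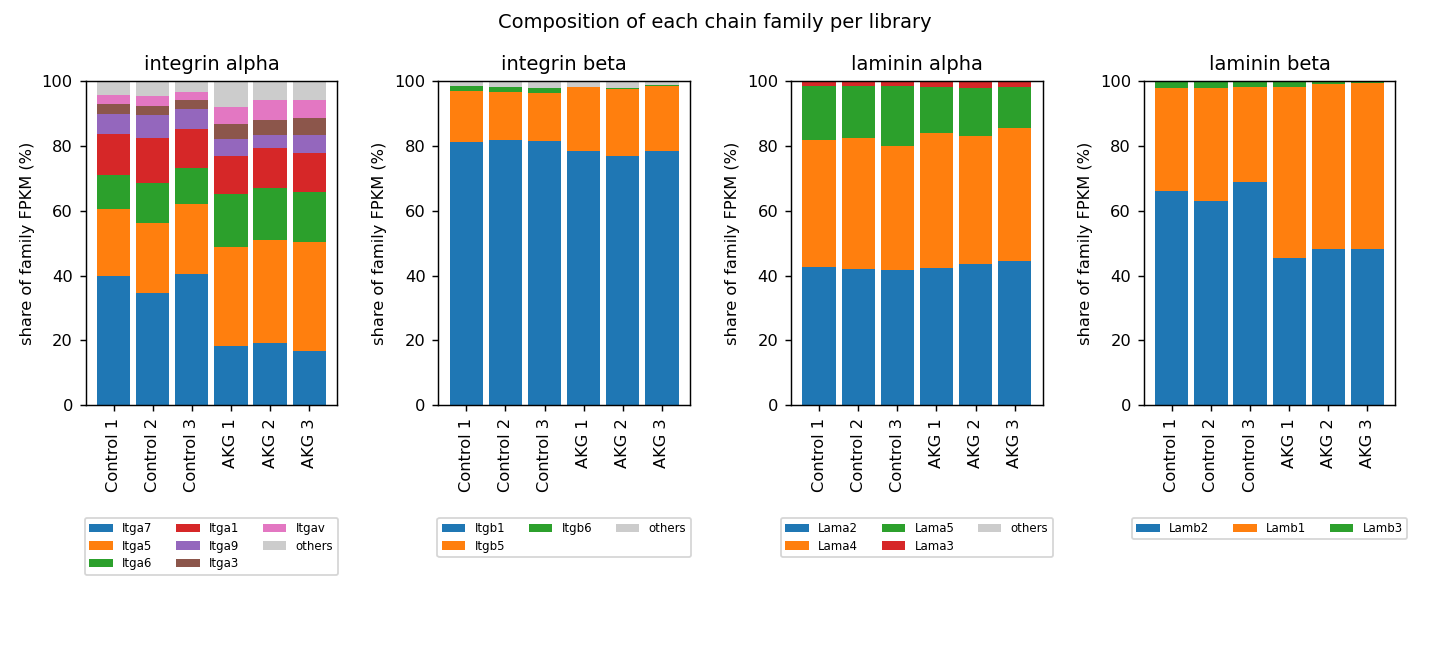
Share of each chain in the summed FPKM of its family, in percent, as stacked bars for the 6 libraries. Itga7 takes 34.5% to 40.5% of integrin alpha in Control and 16.6% to 19.3% after AKG, while Lamb1 takes 29.3% to 35.0% of laminin beta in Control and 50.8% to 52.9% after AKG.

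The other laminin-binding alpha subunits were higher after AKG. Itga3, known from epithelial and endothelial basement membranes, stood at 17.4, 15.5 and 16.9 CPM in Control and 23.9, 21.3 and 24.1 CPM after AKG (log2 fold change 0.48, SE 0.101, adjusted p = 0.00148, edgeR quasi-likelihood). Itga6, a laminin receptor subunit of endothelium and epithelium, stood at 51.7, 60.0 and 55.3 against 70.9, 66.8 and 62.7 CPM. Its log2 fold change was 0.26 (SE 0.081, adjusted p = 0.0156, edgeR quasi-likelihood), and the highest Control library lay just under the lowest AKG library. The call on Itga6 was lost without Control replicate 1 (adjusted p = 0.0877) and without Control replicate 3 (0.0555), and the calls on Itga3 and Itga6 with the atrial covariate (0.061 and 0.107). Endothelial markers moved both ways: 3 of 12 rose and 3 fell, at summed levels of 2149 to 2350 CPM in Control and 2067 to 2467 CPM after AKG. Under total-count scaling 9 of them were higher and 1 lower. Their part in these rises was not tested.

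Subunits that bind the RGD motif of fibronectin and vitronectin were higher or did not pass. Itga5 stood at 110, 112 and 115 CPM in Control and 140, 141 and 145 CPM after AKG, with no overlap (log2 fold change 0.34, SE 0.069, adjusted p = 0.00109, edgeR quasi-likelihood). Itgav, the vitronectin receptor subunit that pairs with several beta subunits, stood at 24.4, 25.0 and 20.5 against 36.6, 36.8 and 36.1 CPM. Its log2 fold change was 0.65 (SE 0.095, adjusted p = 8.36e-05). The nephronectin receptor subunit Itga8, known from smooth muscle and fibroblasts, went from 10.3, 11.4 and 6.92 to 23.9, 15.8 and 15.4 CPM (0.94, SE 0.223, adjusted p = 0.00718), with AKG 1, a library with atrial transcript, the highest. Its adjusted p was 0.0966 with the atrial covariate. The platelet subunit Itga2b stood at 1.69 to 2.11 CPM in Control and 2.00 to 2.48 CPM after AKG, with overlapping groups and an adjusted p of 0.671. Platelet markers stood low beside it, at a sum of 13.7 to 14.7 CPM in Control and 6.59 to 7.44 CPM after AKG, and of 5 tested 2 fell, Pf4 and Ppbp, and 1 rose, F2rl3 (log2 fold change 1.09).

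Among collagen-binding subunits the directions differed. Itga1, the abundant collagen receptor subunit of vessels and mesenchyme, stood at 168, 178 and 165 CPM in Control and 135, 136 and 130 CPM after AKG, and the groups did not overlap. This was a log2 fold change of -0.35 (SE 0.072, adjusted p = 0.00108, edgeR quasi-likelihood). With total counts as the scaling it was 0.09 (edgeR adjusted p = 0.385), so the direction depended on the scaling. Itga11, a fibroblast collagen receptor subunit, went from 1.43, 2.24 and 1.69 to 0.675, 0.559 and 0.388 CPM (-1.72, SE 0.38, adjusted p = 0.00195). In counts this was 21, 36 and 23 against 12, 9 and 7. Itga11 thus entered the test through the Control libraries, which favoured a fall, and the filter of 30 counts in 3 libraries left it out. Itga2, known from platelets and epithelia, rose from 2.59, 2.80 and 1.84 to 7.59, 6.21 and 5.33 CPM, a log2 fold change of 1.39 and the largest rise of the tested members. Itga10, the cartilage collagen receptor subunit, stood at 5.15 to 6.87 and 4.38 to 5.34 CPM with overlapping groups (adjusted p = 0.127). Fibroblast markers moved both ways beside Itga11, with 5 of 12 lower, led by Pi16, and 3 higher, but 2 lower and 4 higher under total-count scaling. Their summed level was 3362 to 4230 CPM in Control and 3221 to 4244 CPM after AKG, and their part was not tested.

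Itga9 and Itga4, relatives that bind tenascin, osteopontin and the vascular adhesion molecule Vcam1, had negative log2 fold changes. Itga9 stood at 54.8, 59.5 and 52.0 CPM in Control and 39.0, 30.2 and 37.3 CPM after AKG (-0.64, SE 0.1, adjusted p = 0.000138, edgeR quasi-likelihood). Under total-count scaling its log2 fold change was -0.20 and its adjusted p 0.173, so this call depends on the scaling. Itga4, a subunit of leukocytes, stood at 6.99 to 7.95 CPM in Control and at 8.38, 4.78 and 3.94 CPM after AKG, where AKG 1 alone lay above the Controls. Its adjusted p was 0.21, and 0.00411 without AKG replicate 1. Its log2 fold change was -0.39, and -0.64 with AKG 2 as the only AKG library. Of 12 macrophage markers 6 fell and 0 rose (3 lower and 1 higher under total-count scaling), at sums of 146 to 223 CPM in Control and 96.3 to 122 CPM after AKG.

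Itgb6, a beta subunit that pairs with Itgav and is best known from epithelia and for activating latent TGF-beta, stood at 12.0, 12.7 and 12.4 CPM in Control and at 0.562, 1.18 and 1.17 CPM after AKG. In counts this was 177, 204 and 169 against 10, 19 and 21, so every AKG library was above the floor of 3 counts. Its log2 fold change of -3.67 (SE 0.227, adjusted p = 4.72e-08, edgeR quasi-likelihood) was a level 12.7-fold lower, and 17 of the 13117 tested genes, itself included, were as low or lower. The fall was called in each alternative fit. On the log2(FPKM + 1) scale, which understates changes of low genes, it was -1.39. Of the mesothelial markers, a list that holds epithelial keratins, 6 were tested, of which Krt8 (log2 fold change 2.82) and Krt18 (3.24) rose and 0 fell, and 5 were higher under total-count scaling. The list's 8 genes summed to 19.4 to 21.7 CPM in Control and 29.1 to 46.2 CPM after AKG.

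Itgb5, the vitronectin-binding partner of Itgav, stood at 57.0, 59.4 and 56.1 CPM in Control and 96.9, 99.0 and 109 CPM after AKG. Every AKG library lay well above every Control library, with a log2 fold change of 0.82 (SE 0.074, adjusted p = 1.27e-06, edgeR quasi-likelihood) that was 1.27 under total-count scaling. The ratio of Itgb5 to Itgb1 FPKM rose from 0.184 ± 0.0062 to 0.26 ± 0.0097 (SD, n = 3, exact permutation p = 0.1, adjusted p = 0.1 over 4 ratios). Itgb1 remained the main beta subunit, at 81.6% ± 0.287 of beta FPKM in Control and 77.9% ± 0.922 after AKG (exact permutation p = 0.1, adjusted p = 0.14, n = 3).

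The remaining beta subunits were low in all libraries. Itgb2, the leukocyte subunit, stood at 2.25 to 3.29 CPM in Control and 1.74 to 3.04 CPM after AKG, and its leukocyte partners Itgal and Itgam did not pass either (adjusted p = 0.711 and 0.15, edgeR quasi-likelihood). Itgb3, the platelet and vitronectin receptor subunit, stood at 3.54 to 4.49 and 4.29 to 4.99 CPM. Itgb4, the hemidesmosome subunit that also serves Schwann cells, stood at 3.39 to 4.83 and 2.33 to 4.83 CPM. Itgb8, a partner of Itgav, stood at 1.29 to 2.80 and 2.17 to 3.65 CPM, and the lymphocyte subunit Itgb7 at 0.442 to 0.932 and 0.277 to 1.12 CPM. In all of these the groups overlapped and the test was not passed (adjusted p = 0.248 to 0.873). Under total-count scaling Itgb3 (log2 fold change 0.63) and Itgb8 (0.88) were called higher.

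The promoters of Itgb5, Itgb6 and Itgb1 are printed because these beta subunits rose, fell and did not pass, respectively. Each is the stretch before the RefSeq start (GRCm38.p6), ended where GENCODE M21 places a first exon, 5′ to 3′ on the gene's strand. Capitals mark, on either strand, the GC box GGGCGG, the E-box CAGCTG, the TEAD site core CATTCC and the TATA box TATAAA, and no matches overlap. The windows are Itgb5 at chr16:33829415-33829664 (plus strand), Itgb6 at chr2:60722644-60722853 (minus strand, the outer of 2 RefSeq starts) and Itgb1 at chr8:128685404-128685653 (plus strand).
Itgb5: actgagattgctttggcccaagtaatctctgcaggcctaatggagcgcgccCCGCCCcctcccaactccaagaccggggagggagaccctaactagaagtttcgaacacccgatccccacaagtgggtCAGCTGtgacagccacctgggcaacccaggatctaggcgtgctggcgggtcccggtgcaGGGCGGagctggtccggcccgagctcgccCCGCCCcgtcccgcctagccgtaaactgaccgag
Itgb6: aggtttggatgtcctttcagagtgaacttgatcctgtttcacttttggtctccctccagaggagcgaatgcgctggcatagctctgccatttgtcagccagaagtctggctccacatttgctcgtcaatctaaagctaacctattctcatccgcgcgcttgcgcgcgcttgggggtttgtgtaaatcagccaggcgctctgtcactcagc
Itgb1: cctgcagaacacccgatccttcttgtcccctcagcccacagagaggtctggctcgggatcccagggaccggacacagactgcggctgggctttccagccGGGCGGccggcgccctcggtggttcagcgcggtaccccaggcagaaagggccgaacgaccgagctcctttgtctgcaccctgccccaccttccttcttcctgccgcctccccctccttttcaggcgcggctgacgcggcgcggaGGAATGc
Itgb5 had 3 GC boxes and 1 E-box, Itgb1 had 1 GC box and 1 TEAD core, and neither window of Itgb6 held any of the 4 motifs. Of all 32851 RefSeq windows of the same 250 bases, 32.7% held a GC box, 12.6% the TEAD core and 12.4% the TATA box, and 4271 windows held the E-box. The table held 24 windows for 21 of the 32 members, of which 8 had a GC box, 6 the E-box, 3 the TEAD core and 0 the TATA box. A match of letters is a description and not a binding site.

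Laminin beta chains changed places. Lamb1 stood at 223, 240 and 212 CPM in Control and 314, 326 and 358 CPM after AKG (log2 fold change 0.57, SE 0.083, adjusted p = 8.73e-05, edgeR quasi-likelihood). Lamb2, the beta chain of mature muscle and of the neuromuscular junction, stood at 426, 399 and 457 CPM in Control and 255, 280 and 263 CPM after AKG (-0.68, SE 0.083, adjusted p = 1.58e-05). Neither pair of groups overlapped. As a share of laminin beta FPKM, Lamb1 held 31.7%, 35.0% and 29.3% in Control and 52.9%, 50.8% and 51.0% after AKG. Lamb2 went from 65.9% ± 2.98 to 47.3% ± 1.72 (SD, n = 3, exact permutation p = 0.1 for both chains, adjusted p = 0.14). The ratio of Lamb1 to Lamb2 FPKM was 0.479, 0.558 and 0.425 in Control and 1.17, 1.05 and 1.06 after AKG, so Lamb1 passed Lamb2 in each AKG library (exact permutation p = 0.1, adjusted p = 0.1). Lamb3 held a mean of only 2.11% of beta FPKM in Control and 1.12% after AKG. Both shares and the ratio therefore express the same comparison. On the FPKM scale the level of Lamb2 itself did not pass (log2 fold change -0.16, limma adjusted p = 0.248 with a pseudocount of 1), and the cause was not tested. Scaled by total counts, its counts gave -0.24 (edgeR adjusted p = 0.0221) and those of Lamb1 gave 1.01. Lamb3, a chain of epithelial basement membranes, fell from 11.5, 11.2 and 10.8 to 7.93, 4.85 and 3.83 CPM (-1.01, SE 0.222, adjusted p = 0.00258), with AKG 1 the highest of the AKG libraries.

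The promoters of Lamb1 and Lamb2 are printed because these chains of the same position in the trimer moved in opposite directions. They lie at chr12:31265043-31265233 and chr9:108479612-108479735, both on the plus strand of GRCm38.p6, and the capitals mark the same motifs.
Lamb1: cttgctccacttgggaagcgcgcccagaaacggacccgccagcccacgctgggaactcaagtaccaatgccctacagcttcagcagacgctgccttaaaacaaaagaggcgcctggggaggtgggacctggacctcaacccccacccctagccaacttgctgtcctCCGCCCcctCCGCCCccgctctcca
Lamb2: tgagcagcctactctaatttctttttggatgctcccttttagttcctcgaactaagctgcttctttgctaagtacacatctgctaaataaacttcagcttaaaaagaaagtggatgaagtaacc
Lamb1 held 2 GC boxes, and the full window of Lamb2 held none of the motifs. The base composition also differed, with 62.0% G and C in the full window of 250 bases for Lamb1 and 43.6% in that for Lamb2, which run past the stretches printed.

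Of 4 tested laminin alpha chains 3 rose and 0 fell, beside 25.0% higher and 25.2% lower of all tested genes. The difference from all genes was not tested, and the calls on Lama2 and Lama4 were lost in several fits. Lama2, the alpha chain of muscle laminin whose loss causes a congenital muscular dystrophy, stood at 130, 138 and 125 CPM in Control and 147, 148 and 177 CPM after AKG. AKG 3 stood apart from the other AKG libraries, and the log2 fold change was 0.26 (SE 0.087, adjusted p = 0.0211, edgeR quasi-likelihood). The call was lost without Control replicate 1 (0.0695), Control replicate 3 (0.0933) or AKG replicate 3 (0.0545), and with the atrial covariate (0.241). Lama4, the alpha chain of vessel and muscle basement membranes, stood at 168, 181 and 158 against 200, 189 and 201 CPM (0.22, SE 0.078, adjusted p = 0.0313). It too was lost without Control replicate 1 (0.0915), Control replicate 3 (0.149) or AKG replicate 1 (0.052), with upper-quartile scaling (0.0573) and with the atrial covariate (0.28). With AKG 2 as the only AKG library the log2 fold changes were smaller, at 0.18 for Lama2 and 0.17 for Lama4. Lama3, an epithelial chain, rose from 6.53, 7.45 and 6.40 to 11.5, 12.9 and 11.5 CPM (0.81, SE 0.135, adjusted p = 0.000238). Lama5, a chain of vessels and epithelia, stood at 135, 136 and 145 against 128, 133 and 119 CPM and did not pass (-0.14, adjusted p = 0.142), but was called higher under total-count scaling (0.31, adjusted p = 0.00444). Lama2 made up 42.2% ± 0.457 of alpha chain FPKM in Control, and 43.4% ± 1.07 in AKG libraries (SD, n = 3, exact permutation p = 0.2, adjusted p = 0.233), and in this family no reordering like that of the beta chains was seen.

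**Figure D3:**
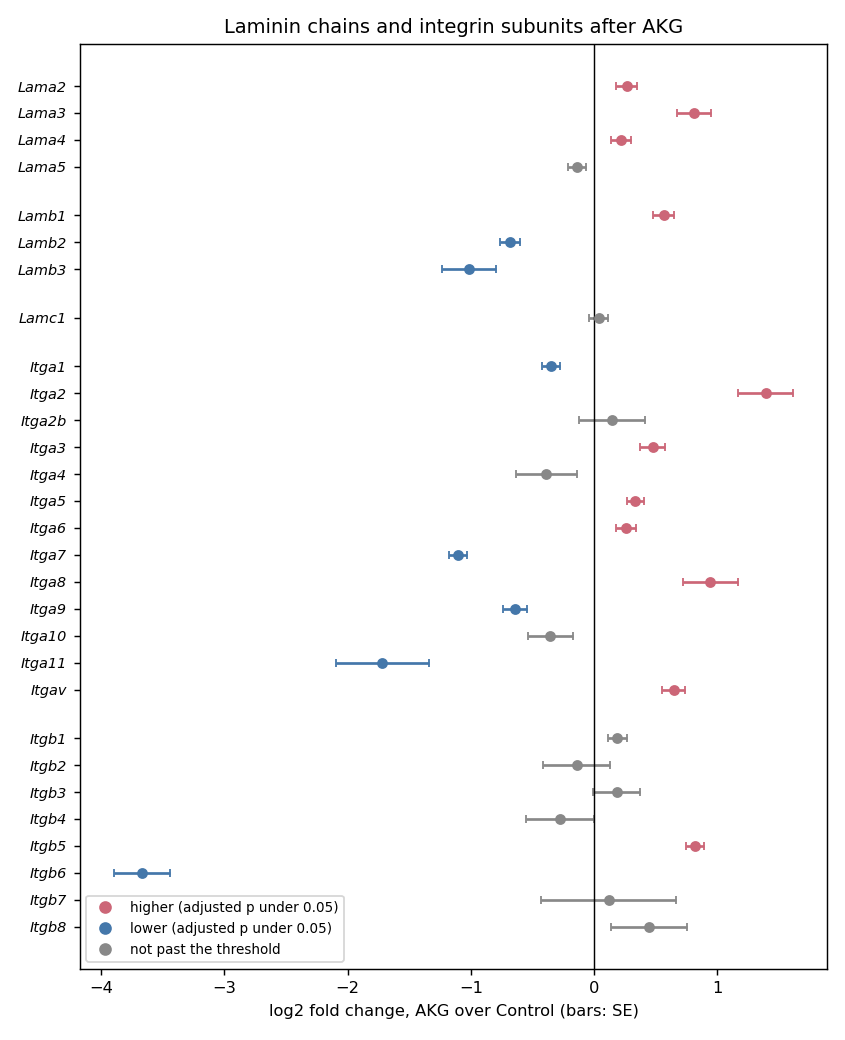
Log2 fold change of AKG over Control for 29 of the 30 tested members, with bars of 1 SE, grouped by family. Itgb6 lies at -3.67, Itga11 at -1.72 and Itga7 at -1.11 on the lower side, and Itga2 at 1.39 is the largest rise.

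The level of the gamma chain gene Lamc1 did not pass the test. Lamc1, the gamma chain of nearly all laminins, stood at 378, 383 and 353 CPM in Control and 394, 362 and 386 CPM after AKG, with overlapping groups (log2 fold change 0.04, SE 0.079, adjusted p = 0.723, edgeR quasi-likelihood). Under total-count scaling Lamc1 was called higher (log2 fold change 0.48, adjusted p = 0.000379). Lamc1 made up 98.9% ± 0.296 of gamma FPKM in Control libraries, and 98.5% ± 0.354 in AKG libraries (SD, n = 3, exact permutation p = 0.3, adjusted p = 0.3).

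The transcript length behind the deposited FPKM of Lamc1 differed between the groups although its count level did not pass the test. Dividing counts by FPKM and by the library total gave the mean transcript length that the authors' FPKM implies, in bases. For Lamc1 this was 2532, 2712 and 2543 in Control and 3661, 3756 and 4800 after AKG, a mean 1.57 times as long with no overlap (exact permutation p = 0.1, adjusted p = 0.178 over 16 members at FPKM 1 or more in all libraries). Among 10612 genes at that level 8, or 0.0754%, had as large an increase. GENCODE M21 lists 5 transcripts of Lamc1, of which the longest has 7622 bases and the next, also coding, 1447. In 10 of the 16 members the implied length moved by 5% or less, as in 81.6% of all such genes. Lama4 stood at 6046 in all libraries, and members past 5% beside Lamc1 included Itga7 (16.5%), Itgb5 (9.01%), Itgav (-6.97%) and Lamb2 (-5.07%). For Itga7 the lengths were 2992, 3521 and 3102 against 3526, 3647 and 4030, again with no overlap (exact permutation p = 0.1, adjusted p = 0.178). In the authors' deposited table, for example, Lamc1 has a log2 fold change of -0.15 between FPKM means. Its counts gave 0.04 here at TMM scaling and 0.48 with total counts as the scaling. The second is the nearer comparison, because FPKM rests on total counts. The deposited values hold no counts per transcript, so which transcripts changed was not tested.

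**Figure D4:**
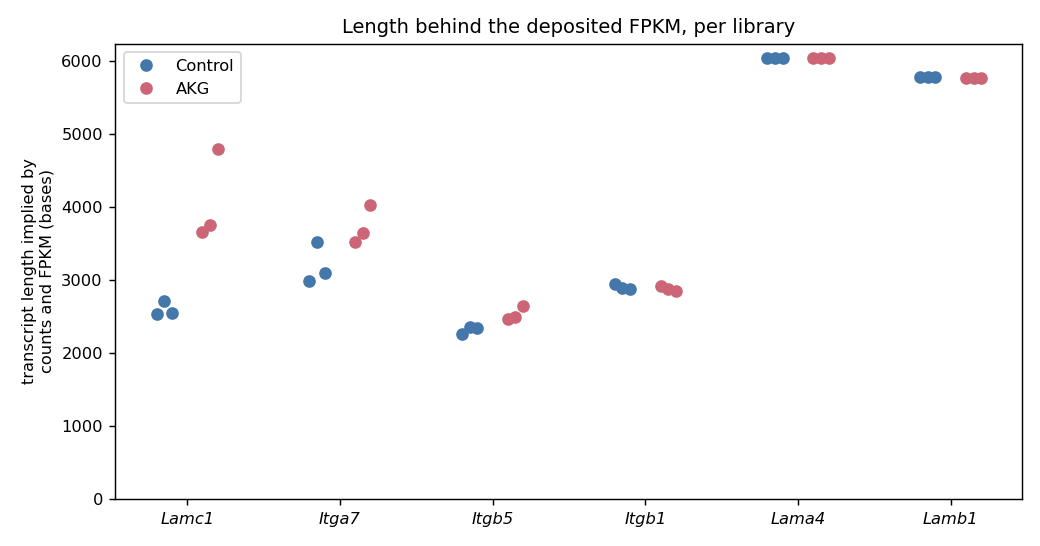
Mean transcript length implied by the deposited counts and FPKM, in bases, for 6 members, with a point per library. Lamc1 lies at 2532 to 2712 in Control and 3661 to 4800 after AKG, while Lama4 stays at 6046.

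Genes that work beside these chains moved both ways. Of 20 basement membrane partners of laminin 9 rose and 8 fell, with a median of 0.04 beside 0.00 for all genes. The smallest p-values were those of the collagen IV chains Col4a3 (15.8 to 4.68 CPM) and Col4a4 (26.1 to 8.64 CPM), of Col15a1 (282 to 121 CPM) and of the matrix calcium binder Smoc2 (58.7 to 28.9 CPM), all of which fell. On the total-count scale 12 of the list were higher and 4 lower. Of 8 non-integrin laminin receptors 3 rose, among them the heparan sulfate proteoglycan gene Sdc1 (9.22 to 16.9 CPM), and Rpsa fell (552 to 461 CPM). On that scale 7 of these were higher and 0 lower.

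Of 30 genes of the integrin adhesion complex, the link from integrin tails to actin, 29 were tested and 10 rose and 7 fell, with a median of 0.00. Itgb1bp2, which encodes the muscle protein melusin that binds the Itgb1 tail, had the smallest p. It fell from 162 ± 17.2 to 29.9 ± 4.75 CPM (SD, n = 3, log2 fold change -2.44, SE 0.119, adjusted p = 4.66e-08, edgeR quasi-likelihood). Lims2 (147 to 62.9 CPM) and Parvb (109 to 75.0 CPM), partners of the integrin-linked kinase, fell too. Their relatives Lims1 (140 to 185 CPM) and Parva (75.3 to 88.2 CPM) were called higher. The gene of that kinase, Ilk, did not pass (adjusted p = 0.199, edgeR quasi-likelihood). Another kinase gene, Src, rose from 5.65 to 11.8 CPM. Scaled by total counts, 22 of this list were higher and 2 lower. Of 18 integrin ligands other than laminin 8 rose and 2 fell, with a median of 0.31. Fibronectin, Fn1, the main ligand of the Itga5 receptor, rose from 209 to 417 CPM, the matricellular gene Ccn2 from 25.0 to 181 CPM and osteopontin, Spp1, from 0.522 to 3.07 CPM. Vitronectin, Vtn, a ligand of the Itgav and Itgb5 receptor, fell from 43.8 to 13.1 CPM. Scaled by total counts, 13 ligands were higher and 1 lower. Beside these lists, 4 of 8 tested Schwann cell markers fell and 1 rose (2 lower and 2 higher under total-count scaling), 3 of 4 tested lymphocyte markers fell, and 5 of 5 tested neutrophil markers rose, in a list of 10 genes that summed to 2.17 to 2.72 CPM in Control and 8.09 to 15.1 CPM after AKG. Neutrophil genes entered the test through the AKG libraries, which favoured a rise, and their part in any result was not tested.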

How the data were processed

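RNA sequencing libraries of isolated heart muscle cells (3 Control, 3 AKG) were analysed from 1 deposited table of 22063 genes. It holds an estimated count per gene and library, deposited by the authors as whole numbers (60 zeros stand beside an FPKM above 0, as in rounded estimates), and an FPKM value made by the authors. The authors' deposited log2 fold change is the ratio of group mean FPKM, and a p-value and false discovery rate are deposited beside it. The submitters' processing notes name HISAT2 2.1.0, RSEM 1.2.19 and DESeq2 1.20.0. Their roles, the genome build, the annotation and the strand setting are not given in the sources used here.

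Counts were tested in R 4.3.3 with edgeR 4.0.16: filterByExpr (minimum count 10, minimum total 15) kept 13117 genes, TMM scaling, the quasi-likelihood test with robust dispersions, and Benjamini-Hochberg adjustment over all tested genes (threshold 0.05). SEs are |log2 fold change|/√F and were not estimated by the fit itself. Adjusted p-values of genes are edgeR's where the text names no tool. Shares and ratios of FPKM within a library were compared by exact permutation over libraries. The permutation test was checked on made-up values. The edgeR test was checked on simulated counts of 13025 genes with 200 changed, far fewer than were called here. That check therefore cannot decide between the scalings. Alternatives were DESeq2 1.42.0, limma 3.58.1 (voom, and log2 FPKM with pseudocounts of 1 and 0.1 for genes at FPKM 1 or more in 3 libraries), other scalings and filters (none, or 30 counts in 3 libraries), no mitochondrially encoded genes, the replicate number as a block, an atrial covariate and leaving out libraries. Members, 21 gene lists and alternatives were chosen with earlier results of these data known. Implied length, FPKM ratios, single-gene shares and promoters were added after the values had been seen. Each member is named but 1, which is counted and not reported here, and from each list of other genes up to 4 called genes with the smallest p. Itgal, Itgam, Lims1, Parva, Ilk and further marker genes were named as circumstances. The 30 rows with no symbol held 3.95e-05% of counts. Promoters are from RefSeq, GRCm38.p6.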

Additional observations from a re-analysis of the deposited data

How the results depend on the processing

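The 7 lower members were the same number with the replicate block, with DESeq2, with limma-voom and without any 1 Control library, and the 11 higher members with the replicate block and without mitochondrially encoded genes. Samples of the same number deviated together by correlations of 0.181, -0.0568 and 0.0604, so the numbers were not taken as pairs, and the block changed no call on the 29 members shown. For the shares the replicate block leaves the difference as it was, at -20.2 points for Itga7. Higher members numbered 17 with total counts as the scaling and 6 with the atrial covariate. Lower members numbered 3 with log2 FPKM at either pseudocount, where 22 members were tested. With a library left out, 8 to 12 were higher and 7 to 8 lower. Over all genes the calls moved too. They ran from 2751 of 13315 higher and 2845 lower without Control replicate 1 to 3296 of 13322 higher and 3243 lower without AKG replicate 3. Calls were lost without 1 library for Itga6, Lama2 and Lama4 only, as given above, and gained for Itga4 and Itgb1.

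Log2 fold changes that turned direction with total counts as the scaling were those of Itga1 (0.0897), Itga10 (0.0894), Itga4 (0.0512), Itgb2 (0.30), Itgb4 (0.17) and Lama5 (0.31). On log2 FPKM with pseudocounts of 1 and 0.1 they were those of Itga1 (0.0863 and 0.0921), Itga10 (0.0479 and 0.0872), Itgb2 (0.16 and 0.30), Lama5 (0.28 and 0.30) and Lamc1 (-0.16 and -0.16). With the atrial covariate Lamc1 turned (-0.0432), with AKG 2 alone Lamc1 (-0.0314), and with limma-voom Itgb7 (-0.0226). With a library left out Itgb2 ranged from -0.28 to 0.0701, Itgb7 from -0.38 to 0.56 and Lamc1 from -0.00031 to 0.0795. Itga1 was the only one of these called by edgeR at TMM scaling. The share of Lamc1 was 0.10 points higher as a share of counts, against -0.39. The scalings set a different zero. For Lamc1, total counts as the scaling gave 0.48, while log2 FPKM, which rests on the same totals, gave -0.16. The transcript length that its FPKM implies was 1.57 times as long after AKG. What caused these turns was not tested. Itgb7 had 28 and 35 counts over the Control and AKG libraries. Its log2 fold change of 0.12 had an SE of 0.55, so a small difference could be missed.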
